A study of Mus musculus with 12 samples.

Results

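Macrophages of a mammary tumour were followed through 9 transcripts, Adgre1, Csf1r, Cd68, Mrc1, Cd163, C1qa, C1qb, C1qc and Trem2, taken by gene symbol from a table of 55487 genes. All 9 were found once and all 9 passed the filter on low counts. The tumours were breast tumours of 12 MMTV-PyMT mice of strain C57BL/6J, whose mammary epithelium expresses polyoma middle T from the MMTV promoter, that of a mouse mammary tumour virus. In 6 mice Bad was wild type (Bad_WT), with end points at 21.286 to 27.143 weeks. The other 6 carried Bad 3SA (Bad3SA), a form of the BCL2 family protein BAD whose regulatory serines are replaced, with end points at 22.857 to 31.143 weeks. Each library was 1 mouse, the labels name no other treatment, and the comparison asks how tumour RNA differs with the state of Bad.

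Tumour-associated macrophages grow and survive on signals through the CSF1 receptor, engulf dying cells and debris, and present or suppress immune signals depending on their state. F4/80, the product of Adgre1, and CD68 mark most mouse macrophages. CD206 (Mrc1) and CD163 are scavenging receptors often used to mark one pole of macrophage states, and TREM2 is a lipid-sensing receptor of lipid-loaded macrophages. C1q, which starts the classical complement cascade, is made largely by macrophages in tissues, where most other complement proteins come from other cells.

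Total counts ran from 58096172 to 83296370 per tumour, and a member never had fewer than 307 counts. Levels are given as CPM, each count relative to its library total after TMM normalisation. The luminal epithelial genes Epcam, Krt8 and Krt18 averaged 1184, 1249 and 1213 CPM in Bad_WT and 1135, 1346 and 1202 CPM in Bad3SA, so the defining genes of the labelled tissue were present. Bad_WT 6 had the lowest mean of log2 CPM in 17 of the 21 gene groups examined, so results are also given without it where it matters.

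None of the 9 macrophage genes differed detectably between the genotypes. Over all 18019 genes tested, 1.38% passed an adjusted p of 0.05 (edgeR quasi-likelihood, Benjamini-Hochberg), with 0.622% higher and 0.76% lower in Bad3SA, so a count of 0 of 9 lies near that background. At an unadjusted p under 0.05 the members again counted 0 of 9, where the share of all genes was 16.2%. All 21 other fits run, DESeq2 and limma voom among them, also called 0 of the 9. The median log2 fold change was 0.23 over the members and 0.003 over all tested genes, where a positive value is higher in Bad3SA. The members' median was 0.44 without Bad_WT 4, where 3 members had an unadjusted p under 0.05, and 0.12 without Bad3SA 2, where 1 did. The share of all genes under 0.05 was not counted in those fits, so these counts cannot be set against a background. The members' median was 0.15 without Bad_WT 5, 0.12 without Bad_WT 6, 0.13 without Bad3SA 5, 0.35 without Bad3SA 6 and -0.09 when the model also held age at the end point. In bulk tumour RNA, fewer macrophages and less RNA per macrophage cannot be told apart.

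The 3 identity genes come first. Adgre1 (ENSMUSG00000004730, GRCm38 chromosome 17, 57358691 to 57483527) encodes F4/80, an adhesion receptor of the macrophage surface. Bad_WT tumours 1 to 6 gave 27.1, 35.5, 25.9, 45.5, 23.0 and 14.7 CPM, and Bad3SA tumours 1 to 6 gave 24.6, 43.0, 24.7, 20.3, 21.2 and 15.5 CPM. One tumour of each genotype, Bad_WT 4 and Bad3SA 2, was highest, and the ranges overlapped almost entirely. Bad3SA minus Bad_WT was log2 -0.20 ± 0.27 (SE; adjusted p = 0.726, edgeR).

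Csf1r (ENSMUSG00000024621, chromosome 18, 61100598 to 61132149) encodes the receptor for CSF1 and IL34 on which macrophage survival depends. Bad_WT tumours gave 63.4, 90.9, 62.2, 112, 54.1 and 29.8 CPM, and Bad3SA tumours 65.0, 112, 74.3, 69.0, 63.0 and 36.4 CPM. The highest tumours of the 2 genotypes reached the same level, and the sixth tumour of each was lowest. The difference was log2 0.02 ± 0.30 (SE; adjusted p = 0.971, edgeR), and it was negative without Bad_WT 3 (-0.02), Bad_WT 5 (-0.04), Bad_WT 6 (-0.13) or Bad3SA 2 (-0.16). Exons of Hmgxb3 on the opposite strand cover 873 bases of the exons of Csf1r, and whether the counting used strand is not stated.

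Cd68 (ENSMUSG00000018774, chromosome 11, 69664213 to 69666153) encodes a lysosomal glycoprotein of phagocytes. Bad_WT tumours gave 22.5, 23.6, 26.1, 41.8, 29.4 and 27.1 CPM, and Bad3SA tumours 35.2, 49.1, 33.8, 27.3, 38.9 and 22.2 CPM. In Bad_WT, tumour 4 stood alone above 30 CPM, while 4 Bad3SA tumours did. The difference of log2 0.28 ± 0.20 (SE; adjusted p = 0.487, edgeR) had an approximate 95% interval from -0.11 to 0.66. Cd68 spanned a 2.21-fold range over the 12 tumours, the narrowest of the 9 genes.

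**Figure D1:**
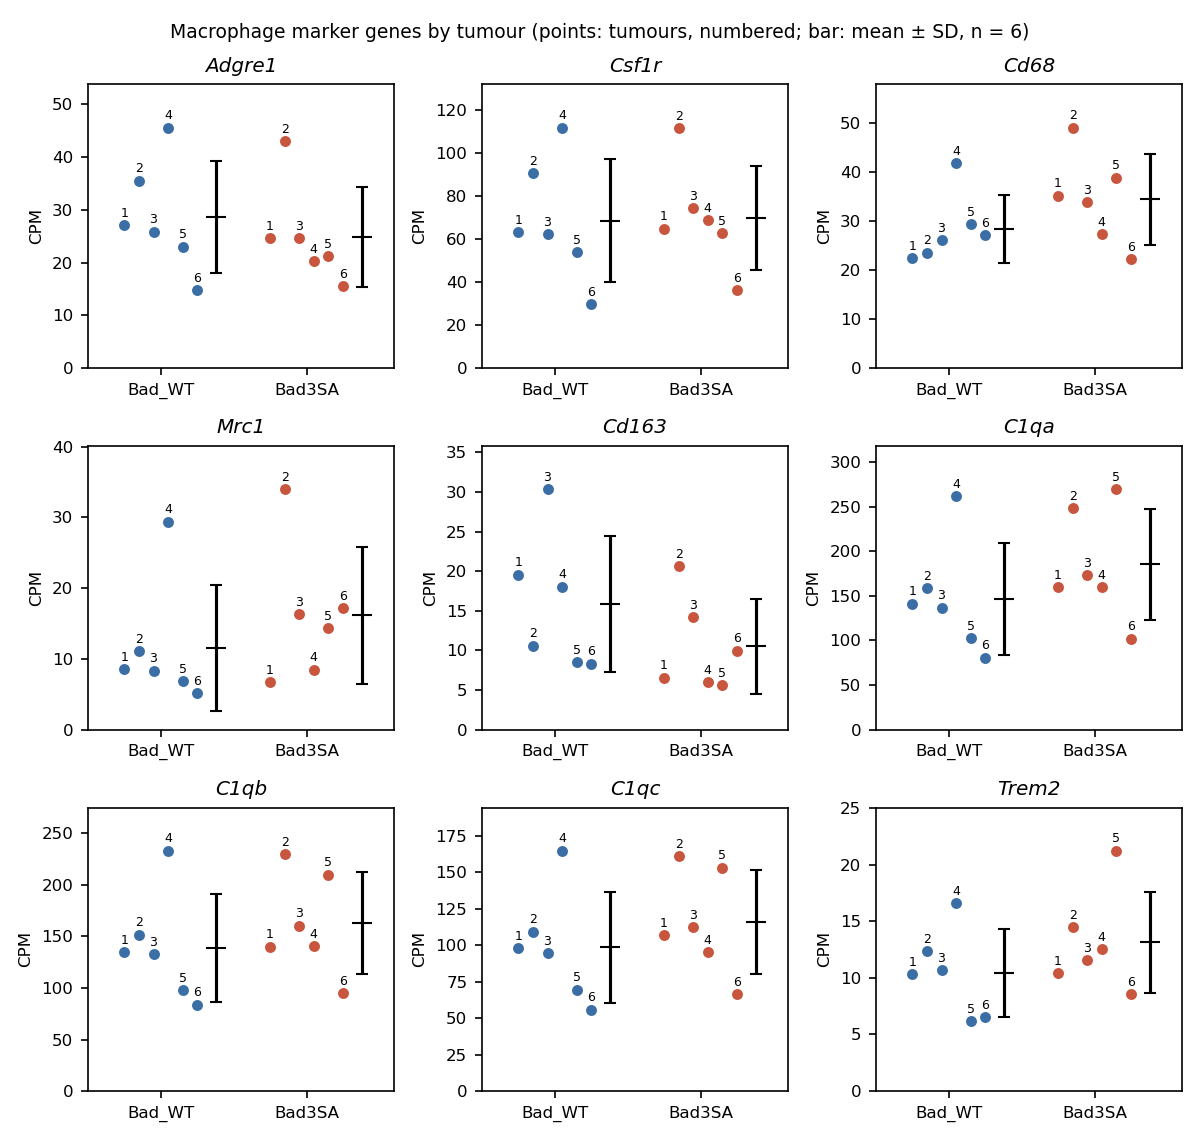
CPM of each macrophage gene (y axis, from 0) in each tumour, numbered by its label, with Bad_WT in blue, Bad3SA in red and bars for the mean ± SD of 6 tumours. Bad_WT 4 and Bad3SA 2 sat at or near the top for most genes, Bad3SA 5 reached 269.7 CPM for C1qa, and the genotypes overlapped for all 9.

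The scavenging receptors had the widest spread and opposite signs. Mrc1 (ENSMUSG00000026712, chromosome 2, 14229392 to 14332057) encodes the mannose receptor CD206. Bad_WT tumours gave 8.57, 11.1, 8.32, 29.4, 6.85 and 5.13 CPM, and Bad3SA tumours 6.69, 34.0, 16.3, 8.48, 14.3 and 17.2 CPM. A single Bad_WT tumour was above 12 CPM, against 4 in Bad3SA. Its difference was log2 0.49 ± 0.46 (SE; adjusted p = 0.601, edgeR). It was 1.03 without Bad_WT 4 (adjusted p = 0.19) and 0.13 without Bad3SA 2, so single tumours set its size.

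Cd163 (ENSMUSG00000008845, chromosome 6, 124304656 to 124330527) encodes the receptor that takes up haemoglobin bound to haptoglobin. Bad_WT tumours gave 19.5, 10.6, 30.3, 18.1, 8.5 and 8.3 CPM, and Bad3SA tumours 6.55, 20.7, 14.2, 6.0, 5.57 and 9.96 CPM. The 3 highest Bad_WT tumours exceeded 18 CPM and Bad3SA 2 was the other tumour to do so. Its difference was log2 -0.60 ± 0.40 (SE; adjusted p = 0.459, edgeR), with an approximate 95% interval from -1.38 to 0.18. It was -0.32 without Bad_WT 3 and -0.91 without Bad3SA 2, the tumours that were highest in each genotype.

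Trem2 (ENSMUSG00000023992, chromosome 17, 48346401 to 48354147) encodes the lipid-sensing receptor. Bad_WT tumours gave 10.3, 12.4, 10.7, 16.6, 6.17 and 6.52 CPM, and Bad3SA tumours 10.4, 14.5, 11.6, 12.5, 21.2 and 8.57 CPM. Bad3SA 5, from the oldest mouse, had the highest value of all. Its difference was log2 0.33 ± 0.27 (SE; adjusted p = 0.544, edgeR), and 0.13 without Bad3SA 5.

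The C1q genes were the most abundant members. Chains A, B and C assemble into the C1q molecule, and their genes lie side by side on the minus strand of chromosome 4 within 18675 bases. C1qb (ENSMUSG00000036905) runs from 136880129 to 136886187, C1qc (ENSMUSG00000036896) from 136889804 to 136893065 and C1qa (ENSMUSG00000036887) from 136895917 to 136898803, with no other annotated gene among them. Divided by the length of the annotated exons, their mean levels in Bad_WT were 141 CPM per kb for C1qa, 128 for C1qb and 51.0 for C1qc. On that scale Cd68 stood at 22.6, Csf1r at 11.9, Adgre1 at 8.84, Cd163 at 2.91, Trem2 at 2.11 and Mrc1 at 1.81 CPM per kb. The length joins all annotated exons of a gene, 1040 bases for C1qa, 1931 for C1qc and 4946 for Trem2. It can exceed that of the transcript made, which lowers the value, so the order of the genes depends on the annotation. The SD over the Bad_WT tumours was 1.57 for Cd163, 0.78 for Trem2 and 1.41 for Mrc1. The genes were measured in the same tumours, so these SDs do not measure whether 2 genes differ, and their order was not tested.

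Upstream sequences are shown for C1qb, C1qc and Trem2, whose levels moved together over tumours, and for Cd163, which did not move with them. RefSeq promoters on GRCm38.p6 were found for 6 of the 9 genes. Each run ends at the RefSeq start or at the first annotated exon, so that of C1qc is shorter. Capitals mark matches to GAGGAAG, a core of the sites bound by PU.1, to TTGCNNAA (C/EBP type) or to TGANTCA (AP-1 type), on either strand.
C1qb, chr4:136886201-136886450, minus strand: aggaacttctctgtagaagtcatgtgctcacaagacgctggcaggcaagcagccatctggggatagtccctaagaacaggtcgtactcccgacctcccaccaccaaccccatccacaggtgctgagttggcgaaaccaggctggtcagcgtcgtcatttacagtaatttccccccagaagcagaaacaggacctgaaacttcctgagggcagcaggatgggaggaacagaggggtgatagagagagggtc
C1qc, chr4:136893066-136893164, minus strand: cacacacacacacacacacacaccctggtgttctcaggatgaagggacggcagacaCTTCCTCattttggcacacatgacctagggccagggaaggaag
Trem2, chr17:48346151-48346400, plus strand: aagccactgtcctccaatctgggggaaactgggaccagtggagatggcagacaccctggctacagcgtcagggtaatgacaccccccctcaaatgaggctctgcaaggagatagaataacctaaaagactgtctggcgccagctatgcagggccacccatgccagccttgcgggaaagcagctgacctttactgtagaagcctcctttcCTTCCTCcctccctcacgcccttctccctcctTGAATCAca
Cd163, chr6:124304429-124304650, plus strand: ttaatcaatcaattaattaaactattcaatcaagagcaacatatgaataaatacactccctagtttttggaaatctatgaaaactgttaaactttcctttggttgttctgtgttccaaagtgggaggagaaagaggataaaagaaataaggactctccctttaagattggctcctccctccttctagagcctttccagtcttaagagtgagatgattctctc
In the 250 bases before the RefSeq start, GAGGAAG was found for C1qc, Trem2 and Mrc1, against 10.6% of 32851 promoters of that length. TGANTCA was found for Trem2 and Cd68, against 6.75%, and TTGCNNAA for Cd68, against 9.56%. An interferon-stimulated type motif was found in none of the 6 and in 2.98% of all. C1qb and Cd163 held none of the 4 motifs in this window, which says only that these letters are absent there.

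For C1qa, Bad_WT tumours gave 141, 158, 137, 262, 103 and 80.9 CPM, and Bad3SA tumours 160, 248, 173, 160, 269.7 and 102 CPM. In Bad3SA, 5 of the 6 tumours lay above the Bad_WT median, and tumour 6 lay with the lowest Bad_WT tumours. Its difference was log2 0.34 ± 0.28 (SE; adjusted p = 0.554, edgeR). For C1qb, Bad_WT tumours gave 135, 152, 133, 233, 97.8 and 83.8 CPM, and Bad3SA tumours 140, 229, 160, 141, 210.0 and 95.3 CPM. Its highest Bad3SA tumour was 2, where that of C1qa was 5. C1qc spanned 55.7 to 165 CPM over the Bad_WT tumours and 66.5 to 161 CPM over the Bad3SA tumours, highest in 4 and 2. The differences were log2 0.23 ± 0.25 for C1qb and 0.23 ± 0.26 for C1qc (SE; adjusted p = 0.661 and 0.660, edgeR).

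In the authors' deposited table, whose fold changes are Bad_WT relative to Bad3SA and so carry the opposite sign, no member passed either. There 4.02% of genes with an adjusted p did. Cd163 had the smallest adjusted p of the 9 in the authors' deposited table (0.49, adjusted p = 0.467).

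**Figure D2:**
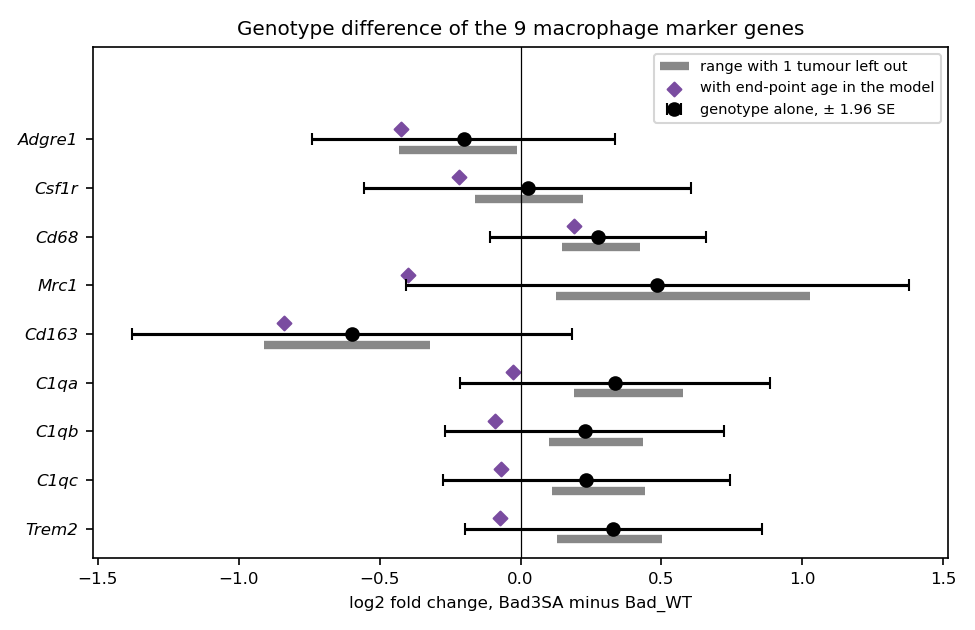
Log2 fold change of Bad3SA over Bad_WT for each gene (x axis), as black points with bars of the approximate 95% interval, grey ranges from leaving out 1 tumour at a time, and purple diamonds from the model with end-point age. Every black bar crosses 0, and with age the diamonds of Csf1r, Mrc1, C1qa, C1qb, C1qc and Trem2 lie below 0.

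Age did not separate from genotype in these mice, the Bad3SA mice being older on average at the end point (27.5 ± 2.85 weeks against 24.0 ± 1.93 weeks, SD, n = 6). With age in the edgeR model, the fold changes of 6 members changed sign, to log2 -0.22 for Csf1r, -0.40 for Mrc1, -0.03 for C1qa, -0.09 for C1qb, -0.07 for C1qc and -0.07 for Trem2. No member passed for the slope with age, and no gene of the 18019 did. The unadjusted p for that slope was under 0.05 for Mrc1 (0.26 log2 units per week, SE 0.10, edgeR adjusted p = 0.583) and Trem2 (0.12, SE 0.05, adjusted p = 0.583), where 8.44% of all genes fell under it. All 9 slopes were positive, but the members vary together, so these are not 9 separate observations. The share of positive slopes over all genes was not counted.

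Most macrophage genes varied together from tumour to tumour, and Cd163 did so least. Pearson r of log2 CPM over the 12 tumours was above 0 for all 36 pairs, with a median of 0.71, and 22 pairs had a permutation p under 0.05 adjusted over the 36. The median was 0.89 within Bad_WT, 0.72 within Bad3SA and 0.52 without the 2 tumours farthest from the median of the first gene of each pair.

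C1qb and C1qc had the highest r, 0.995 (rho 0.979, permutation p = 1e-05 for each, the smallest that 100000 resamples can give). Without the 2 farthest tumours, Bad_WT 4 and Bad_WT 6, it was 0.994. Trem2 followed C1qa at 0.944 (rho 0.916, permutation p = 2e-05 and 1.2e-04, adjusted over the 36 pairs 1.8e-04 and 0.00108) and at 0.913 without Bad_WT 6 and Bad3SA 5. Adgre1 and Csf1r stood at 0.936 (rho 0.790, permutation p = 9e-05 and 0.00348), and at 0.894 without Bad_WT 4 and Bad3SA 2.

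Other pairs rested on a few tumours. Adgre1 and Cd68 had an r of 0.526 (rho 0.329, permutation p = 0.0798 and 0.297), which became -0.01 without Bad_WT 4 and Bad3SA 2. Cd68 and Cd163 had the lowest r, 0.041 (rho -0.091, permutation p = 0.897 and 0.782). Cd163 and Trem2 stood at 0.065 (rho 0.014, permutation p = 0.843 and 0.974), with 0.60 in Bad_WT and -0.18 in Bad3SA, a difference that was not tested.

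**Figure D3:**
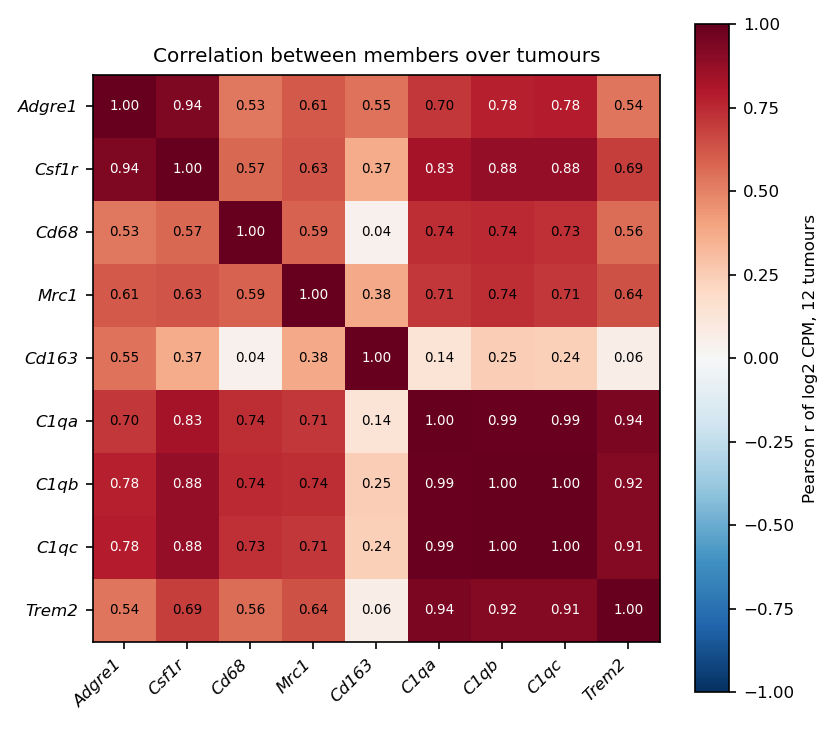
Pearson r of log2 CPM over the 12 tumours for each pair of macrophage genes, coloured from -1 (blue) to 1 (red) with the value in each cell. The 3 C1q genes and Trem2 form the block of highest values, at 0.91 and above, and the row of Cd163 is the palest.

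The genes whose level was most like each group over the 12 tumours were sought among 12212 others. For Adgre1, Csf1r and Cd68 together they were Cd86, Laptm5, Itgb2, Ncf1 and Nckap1l, with r from 0.974 to 0.992. These encode a costimulatory ligand, a lysosomal membrane protein, the beta 2 integrin chain, an NADPH oxidase subunit and an actin regulator of blood cells. For C1q they were Cd48, Fcer1g, Spi1, Tnfaip8l2 and H2-DMa (0.975 to 0.994), where Spi1 encodes PU.1 itself, and for Trem2 they were Tyrobp, Fam174a, Cd300c2, Ncf4 and Tnfaip8l2 (0.949 to 0.964). Tyrobp, at the head of that list, encodes DAP12, the adaptor through which TREM2 signals. Of the 12212 genes, 76 had an r above 0.9 with the identity genes, 82 with C1q and 28 with Trem2. A high r was therefore not particular to Spi1 or Tyrobp.

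For the average of Mrc1 and Cd163 the nearest genes were Sulf1, Hic1, Thbs4, Loxl1 and Tek, with r from 0.893 to 0.943. Mrc1 and Cd163 themselves stood at an r of 0.383 (permutation p = 0.220), and at 0.056 without Bad_WT 4 and Bad3SA 2. These neighbours therefore describe the average and not either gene. Loxl1 encodes a matrix cross-linking enzyme, Thbs4 a thrombospondin of the matrix and Tek an endothelial receptor. The summed CPM of 8 fibroblast markers was 293 to 2318 in Bad_WT and 358 to 3033 in Bad3SA, lowest in Bad_WT 6 and highest in Bad3SA 2, and its part in the levels of Mrc1 and Cd163 was not tested.

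Ratios of 2 genes within a tumour do not depend on depth or normalisation. Against the mean of Adgre1, Csf1r and Cd68 on the log2 scale, C1qa was higher in Bad3SA by 0.32 (exact two-sided permutation p = 0.0260, 0.152 adjusted over the 6 ratios tested). C1qb and C1qc stood at 0.20 and 0.21 (exact permutation p = 0.0758 and 0.0671, both 0.152 adjusted), Trem2 at 0.31 (p = 0.216), Mrc1 at 0.50 (p = 0.188) and Cd163 at -0.65 (p = 0.123). None of the 6 passed after adjustment. The C1qa ratio was 0.19 without Bad3SA 5 (exact permutation p = 0.0563).

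The size of the C1q ratios depended on the denominator. Over Cd68 the differences were log2 0.10 for C1qa, -0.02 for C1qb and -0.005 for C1qc (exact permutation p = 0.654, 0.955 and 0.983). Over Csf1r they were 0.30, 0.18 and 0.19 (exact permutation p = 0.0974, 0.290 and 0.253). They were furthest apart over Adgre1, the identity gene with a negative difference. C1qa counts were 5.22, 4.46, 5.29, 5.74, 4.47 and 5.49 times those of Adgre1 in Bad_WT 1 to 6, and 6.5, 5.77, 7.01, 7.89, 12.7 and 6.58 times in Bad3SA 1 to 6. Every Bad3SA tumour lay above every Bad_WT tumour, though Bad3SA 2 and Bad_WT 4 nearly met, and this was the 1 pair of 36 whose ranges did not overlap. For the CPM of single genes, the ranges of 2.23% of all those tested did not overlap. That share was not counted for ratios of other genes. The difference was log2 0.55 (SE 0.18, 1.47-fold), with an exact two-sided permutation p of 0.00216, the smallest that 6 against 6 tumours allow.

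C1qb ran from 4.25 to 5.69 times Adgre1 in Bad_WT and from 5.33 to 9.89 times in Bad3SA (log2 0.44, SE 0.14, exact permutation p = 0.00433). C1qc ran from 3.02 to 3.78 and from 3.74 to 7.21 times (log2 0.45, SE 0.14, exact permutation p = 0.00433). The ranges of C1qb and C1qc overlapped slightly. All 36 ratios between 2 members were then compared, a family added after the data were seen, and the 3 had an adjusted p of 0.0520 each, the smallest of the 36. Without Bad3SA 5, whose ratios were highest, the differences were 0.40, 0.32 and 0.32. With end-point age in a linear model they were 0.43 (SE 0.22), 0.36 (SE 0.19) and 0.37 (SE 0.19).

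The chains themselves kept a nearly fixed proportion. C1qb counts were 1.38 to 1.5 times those of C1qc in Bad_WT and 1.31 to 1.48 times in Bad3SA, with an SD of log2 0.05 in the first and 0.06 in the second. C1qa was 0.965 to 1.12 times C1qb in Bad_WT and 1.07 to 1.28 times in Bad3SA, a difference of log2 0.11 (SE 0.05, exact permutation p = 0.0325, 0.185 adjusted over the 36). Its exact permutation p ranged from 0.00866 to 0.0649 with 1 tumour left out.

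Among the other ratios, Csf1r was 2.03 to 2.56 times Adgre1 in Bad_WT and 2.35 to 3.40 times in Bad3SA (log2 0.26, SE 0.09, exact permutation p = 0.0173, 0.156 adjusted over the 36). Mrc1 was 0.439, 1.04, 0.274, 1.63, 0.805 and 0.618 times Cd163 in Bad_WT and 1.02, 1.64, 1.15, 1.41, 2.57 and 1.73 times in Bad3SA. Mrc1 counts exceeded those of Cd163 in all 6 Bad3SA tumours and in 2 Bad_WT tumours. The difference was log2 1.15 (SE 0.42, exact permutation p = 0.0217, 0.156 adjusted over the 36), and 0.56 (SE 0.45) with end-point age in a linear model.

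**Figure D4:**
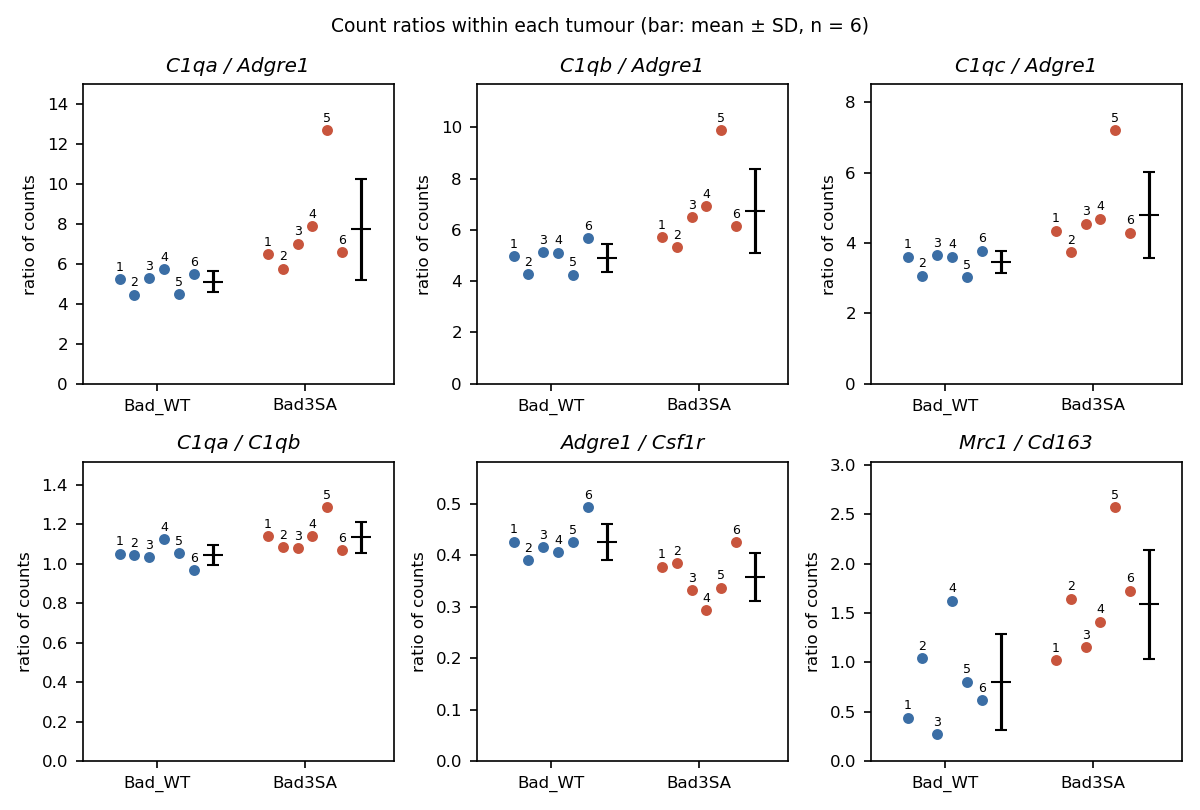
Ratio of counts within each tumour (y axis, from 0) for 6 pairs of macrophage genes, with Bad_WT in blue, Bad3SA in red and bars for the mean ± SD of 6 tumours. C1qa over Adgre1 ran from 4.46 to 5.74 in Bad_WT and from 5.77 to 12.7 in Bad3SA.

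Other macrophage genes gave no call in the edgeR fit. Of 24 tested in a list of further macrophage genes, such as Mertk and Aif1, 17 had a positive difference and 7 a negative one (median 0.16), and 0 passed at an adjusted p of 0.05. The smallest p belonged to Clec4n, which encodes the fungal receptor dectin-2 (0.86 ± 0.24, SE; adjusted p = 0.116, edgeR). It passed with DESeq2 (adjusted p = 0.0252), with limma voom (adjusted p = 0.0377) and with edgeR without Bad3SA 6 (adjusted p = 0.0401). Clec4n stood between 4.01 and 7.19 CPM in Bad_WT and between 4.77 and 13.4 CPM in Bad3SA. Lgmn, a lysosomal protease gene, stood at 0.23. The summed CPM of this list was 832 to 2312 in Bad_WT and 894 to 2284 in Bad3SA.

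On the CSF1 receptor axis 0 of 10 genes passed, with a median of 0.28. The ligand gene Csf1, given for its role, spanned 40.0 to 81.0 CPM over the Bad_WT tumours and 44.0 to 109.6 CPM over the Bad3SA tumours (0.33 ± 0.26, SE; adjusted p = 0.526, edgeR). The other ligand gene, Il34, ran from 3.25 to 8.48 and from 3.07 to 7.02 CPM (-0.23 ± 0.29, SE; adjusted p = 0.697, edgeR), and its exons overlap antisense gene models over 22 and 75 bases. Csf2ra and Csf3 stood at 0.40 and 0.88 and Cbl, which encodes a ligase that turns the receptor over, at -0.25.

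Of the 17 genes listed for TREM2 signalling and lipid-associated macrophages 0 passed, 14 were positive and the median was 0.16. Tyrobp ran from 16.8 to 47.7 CPM in Bad_WT and from 22.1 to 67.1 CPM in Bad3SA (0.48, SE 0.28, edgeR adjusted p = 0.395). Lgals3, which encodes galectin 3, stood at 0.69 and Hcst, the gene of the adaptor DAP10, at 0.56.

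The classical complement list held 1 call among 15 genes, and 13 of them were positive with a median of 0.46. C4b, which encodes the complement protein cleaved by the C1 complex, gave 96.0, 173, 137, 225, 146 and 82.1 CPM in Bad_WT tumours 1 to 6, against 539, 724, 839, 435, 531 and 408 CPM in Bad3SA tumours 1 to 6. All 6 Bad3SA tumours lay above all 6 Bad_WT tumours, as for 2.23% of all genes in either direction. C4b rose by log2 2.02 ± 0.26 (SE; adjusted p = 9.49e-04, edgeR), and by 1.80 once the model held age (adjusted p = 0.0111). Its paralogue C4a, chosen after its value was seen, averaged 0.938 CPM over the Bad_WT tumours and 1.43 CPM over the Bad3SA tumours, and reads could be divided between the copies. C3, which the cascade cleaves after C4 and C2, stood at 1.76 (SE 0.54, edgeR adjusted p = 0.145), and passed with DESeq2 (adjusted p = 0.0246) and limma voom (adjusted p = 0.0307).

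Genes of resident-like macrophages, such as Folr2 and Lyve1, counted 0 of 11 passing, with a median of 0.41. Ccl8, Pf4 and Cbr2 had the smallest p in that list, at 1.02, 0.60 and 0.67. Of 15 activation genes 1 passed. Arg1, which encodes arginase, spanned 43.9 to 163 CPM over the Bad_WT tumours and 137 to 339 CPM over the Bad3SA tumours, and rose by log2 1.49 ± 0.34 (SE; adjusted p = 0.0489, edgeR). It lost this call in 15 of 21 other fits, with an adjusted p of 0.236 once the model held age. Tgfb1 stood at -0.40 and Nos2, the gene of inducible nitric oxide synthase, at 0.77. In a list for osteoclasts and cell fusion 1 of 6 genes passed, Dcstamp, whose product acts in osteoclast fusion. It spanned 0.293 to 1.01 CPM over the Bad_WT tumours and 3.06 to 6.75 CPM over the Bad3SA tumours and rose by log2 3.37 ± 0.36 (SE; adjusted p = 1.75e-04, edgeR). Mmp9 and Ocstamp stood at 0.91 and -0.28.

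Markers of other cell types gave no call in the edgeR fit, though some did elsewhere. The monocyte list counted 0 of 11, with Nr4a1 at -0.68 (edgeR adjusted p = 0.0659) and Ace at -0.61. The dendritic cell list counted 0 of 10, 8 of them negative, with Cd207 at -1.48 (edgeR adjusted p = 0.0672), Fscn1 at -1.21 and Zbtb46 at -0.45. Nr4a1 passed with DESeq2 (adjusted p = 0.0106), limma voom (0.0436), edgeR without a filter (0.0414) and edgeR without Bad_WT 3 (0.0448). Cd207 passed with DESeq2 (adjusted p = 0.00502) and limma voom (0.0373), and Ace and Mmp9 with limma voom (0.0300 and 0.0394). The summed CPM of the dendritic cell list was 42.2 to 279 in Bad_WT and 36.2 to 73.2 in Bad3SA. The highest sum was in Bad_WT 6, which had the lowest mean log2 CPM of the same list (-0.864). Most of the sum was Fscn1, which averaged 98.9 ± 99.0 CPM (SD) in Bad_WT, where Zbtb46, the next highest, averaged 5.15 CPM. Ltf, Mmp9 and S100a9 led the neutrophil list at 0.92, 0.91 and -1.04, and Hdc, Cma1 and Mcpt4 the mast cell list at 0.44, 0.72 and 0.46. Both lists counted 0 calls, of 7 and of 5 genes. S100a9 was positive with limma voom (0.81) and without Bad_WT 4 (0.89), and Cma1 and Mcpt4 were negative when the model held age (-1.16 and -2.24). Several of these genes, among them Ltf, Ace and Nr4a1, are also made by epithelial or endothelial cells.

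In the lymphocyte lists 0 of 12 T and NK cell genes and 0 of 5 B cell genes passed. Cd3d, Cd4 and Nkg7 stood at 1.03, 0.63 and 0.61, and Pax5, Cd79a and Cd22 at 0.77, 0.38 and 0.42. Of the T and NK cell genes 11 had a positive difference and 1 a negative one (median 0.60), and their summed CPM was 4.82 to 18.9 over the Bad_WT tumours and 13.7 to 29.0 over the Bad3SA tumours, lowest in Bad_WT 6. Stromal and epithelial lists also counted 0 calls with edgeR, and Egfl7 passed with DESeq2 (adjusted p = 0.0443). The fibroblast genes Col1a1, Col3a1 and Lum stood at 0.66, 0.74 and 0.76, and the endothelial genes Egfl7, Cldn5 and Emcn at 0.60, 0.47 and -0.20. When the model held age, Col1a1, Col3a1 and Lum stood at -0.62, -0.61 and -0.76. Fabp4, Plin4 and Retn led the adipocyte list at 1.75, 1.23 and 1.94, and stood at -0.72, 0.07 and -1.32 when the model held age. Elf5, Krt19 and Krt8 led the luminal list at 0.34, -0.52 and 0.11. Summed adipocyte markers were highest in Bad3SA 5 at 346 CPM, the tumour with the highest C1qa and Trem2, and their part in those levels was not tested.

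**Figure D5:**
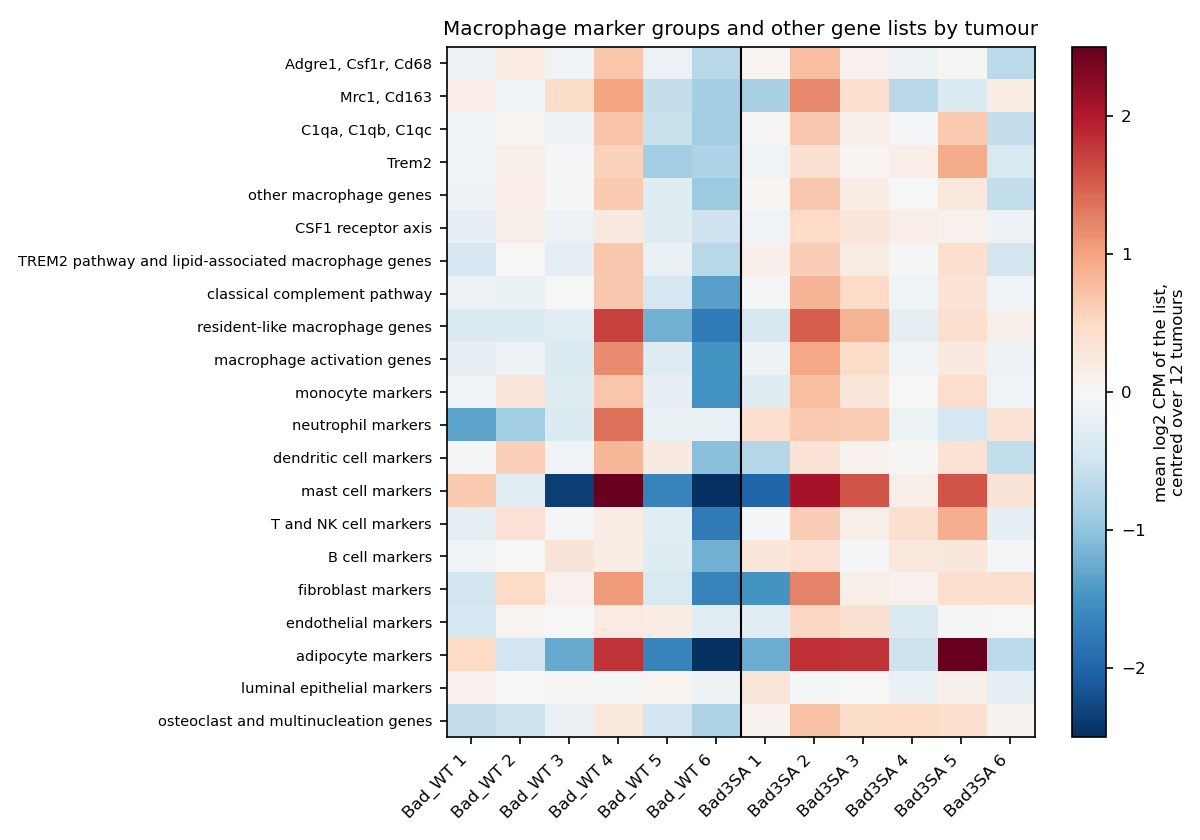
Mean log2 CPM of each gene group (rows) in each tumour (columns), centred over the 12 tumours, from blue (low) to red (high), with a line between the genotypes. Bad_WT 4 and Bad3SA 2 are red and Bad_WT 6 blue across the macrophage, stromal and most other rows, while the luminal epithelial row stays close to white.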

How the data were processed

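RNA of 12 tumours was sequenced from polyadenylated RNA as paired reads of 100 bases, per the labels. The authors deposited raw counts per gene. STAR 2.7.9a, fastp 0.23.1, GRCm38 and DESeq2 are listed, per the submitters' processing notes. Counting tool and strand setting: not given in the sources used here. The authors' deposited table, per the file headers, holds log2 fold changes, a score with its standard error, a signal column (the mean normalised count), and raw and adjusted p-values. The sign of its fold changes was read from a Spearman rho of -0.997 with the fold changes computed here.

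Counts were filtered (filterByExpr), scaled by TMM and tested for genotype with the quasi-likelihood F test of edgeR 4.0.16 in R 4.3.3, with Benjamini-Hochberg adjustment over 18019 genes and a threshold of 0.05. The SE is the absolute log2 fold change over the square root of F. Alternatives used DESeq2 1.42.0 and limma 3.58.1. Ratios used counts plus 0.5 and exact permutation over all splits of 6 against 6. On simulated counts of 18019 genes for this comparison, 43% of changes of log2 1 and 80% of log2 2 were called. A count of 3 was worth 0.036 to 0.0516 CPM, and floors cover counting error only. Exon lengths came from GENCODE M21.

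The members and lists were chosen with earlier results of these data known. Named genes are the 9 members, in each other list the genes that passed and the 3 with the smallest p, and the 5 genes most like each role group; a few that the rule picks are not reported here.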

Additional observations from a re-analysis of the deposited data

Results flagged for a closer look

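In 9 of 30 groups of 6 tumours, a single tumour lay apart from the rest by the gap test of Dixon. Its chance rate of about 1 in 20 groups holds for normally distributed values. The CPM of single genes were tested without a log scale, so that rate may not hold for them. The genes also vary together, so the 9 flagged groups are not 9 separate events. Adgre1 was at 43.0 CPM in Bad3SA 2, and Cd68 at 41.8 CPM and Mrc1 at 29.4 CPM in Bad_WT 4, each the highest of its genotype. The log2 ratio of Mrc1 to the 3 identity genes was also apart in Bad_WT 4, at -1.02. In Bad3SA 5 the ratios of C1qa, C1qb and C1qc to those genes were apart on the high side, at 2.85, 2.49 and 2.04. In Bad_WT 5 the ratios of C1qb and Trem2 were apart on the low side, at 1.56 and -2.42.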

How the results depend on the processing

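No macrophage gene passed in any of the 21 other fits run, the smallest adjusted p being 0.19 for Mrc1 without Bad_WT 4, and 178 of 189 fold changes of the members kept their sign. Csf1r reversed without a filter (-0.0027), with end-point age (-0.22) and within a range of -0.16 to 0.22 with 1 tumour left out. With age, Mrc1 (-0.40), C1qa (-0.027), C1qb (-0.089), C1qc (-0.068), Trem2 (-0.074), Cma1 (-1.16), Mcpt4 (-2.24), Cd22 (-0.0034), Col1a1 (-0.62), Col3a1 (-0.61), Lum (-0.76), Fabp4 (-0.72) and Retn (-1.32) reversed. S100a9 was 0.81 with limma voom, 0.46 with the replicate block, 1.08 without Bad_WT 4 and Bad_WT 6 and -1.31 to 0.89 with 1 tumour left out, and Cbr2 -0.061 to 1.15. The cause of these reversals was not tested. Of genes differing between genotypes 998 were called with DESeq2, 579 with limma voom, 163 at 1 CPM in 6 tumours, 73 with age, 105 with the replicate block and 147 to 315 with 1 tumour left out, against 249. The ratio of C1qa to the identity genes (0.32), which was under 0.05 before adjustment alone, was not with Csf1r as denominator (0.30, exact permutation p = 0.0974) or the replicate block (0.32, exact sign-flip p = 0.0625), and ran from 0.19 to 0.36 with 1 tumour left out. C1qb, C1qc and Trem2 were under 0.05 before adjustment with Adgre1 as denominator (0.44, 0.45 and 0.54), and not with Csf1r (0.18, 0.19 and 0.29) or Cd68 (-0.02, -0.005 and 0.09). With 1 tumour left out, the ratio to the mean of the 3 identity genes ran for Mrc1 from 0.30 to 0.72, for C1qb from 0.12 to 0.24 and for C1qc from 0.12 to 0.25. Same-numbered tumours of the 2 genotypes correlated at -0.27 to 0.28 after group means were removed, and 1 of 6 correlated best with its own number. The labels do not state that the numbers pair the mice, and this check cannot exclude it. Leaving out Bad_WT 4 and Bad_WT 6 together was chosen after seeing the data. With DESeq2 and without a filter the median of all genes moved to 0.16 and 0.13, over more low genes.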
